A study of Mus musculus with 6 samples.

Results

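The miR-200 family consists of 5 mature microRNAs (miRNAs, short RNAs that repress messenger RNAs), here miR-200a-3p, miR-200b-3p, miR-200c-3p, miR-141-3p and miR-429-3p. They were picked by name and make up 5 of the 1247 mouse miRNAs on each array. The arrays compared macrophages of the healthy brain, colon and liver of wild-type male C57BL6/J mice, with 2 arrays per population and 6 in all. Each array held RNA from a pool of 4 to 6 mice, aged 6 weeks in the sample labels and 6 to 8 weeks in the design text. The labels give no treatment, transgene or deletion for any group. Brain microglia were sorted as CD45 intermediate cells with CD11b and F4/80 and without Ly6C and Ly6G. Colon macrophages were sorted on CD45, CD11b, CD11c and CD64 without Ly6C, and liver macrophages (Kupffer cells) on CD45, CD11b, F4/80, CD64 and MHCII. The listed gates name no epithelial surface protein, either as required or as excluded.

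The miR-200 family is best known as a guardian of the epithelial state. Its members repress the transcription factors Zeb1 and Zeb2, which in turn silence E-cadherin and the miR-200 genes themselves, so that epithelial cells hold high miR-200 and mesenchymal cells low miR-200. In the gut the family is abundant in the lining epithelium, while cells of the blood lineage, macrophages among them, are generally described as holding little of it.

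The 5 sequences are shown because they divide the family in one way by seed and in another by genomic position, and detection on the liver arrays followed position. RefSeq sequences of build GRCm38.p6 matched all 5 members. Capitals mark the seed, bases 2 to 8, which chooses the target messenger RNAs.
mmu-miR-200b-3p: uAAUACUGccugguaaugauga
mmu-miR-200c-3p: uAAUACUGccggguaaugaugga
mmu-miR-429-3p: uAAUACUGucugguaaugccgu
mmu-miR-200a-3p: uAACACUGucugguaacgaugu
mmu-miR-141-3p: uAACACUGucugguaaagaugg
miR-200b-3p, miR-200c-3p and miR-429-3p share the seed AAUACUG, and miR-200a-3p and miR-141-3p share AACACUG. The seeds differ at 1 base, U4C from miR-200b-3p to miR-200a-3p, counted from the 5′ end. No other of the 1738 mature mouse sequences in the RefSeq table carries either seed. The closest relatives are miR-200b-3p with miR-200c-3p and miR-200a-3p with miR-141-3p, each identical at 20 of 22 positions. All other pairs matched at 17 or 18 of 22.

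By position the family falls into 2 clusters. miR-200b-3p (chr4:156055685-156055706, minus strand), miR-200a-3p (chr4:156054911-156054932, minus strand) and miR-429-3p (chr4:156053916-156053937, minus strand) come from 3 hairpins within 1846 bases of chromosome 4, inside the span of the long noncoding RNA gene Gm13648. miR-200c-3p (chr6:124718324-124718346, minus strand) and miR-141-3p (chr6:124717917-124717938, minus strand) come from 2 hairpins within 477 bases of chromosome 6. The chromosome 6 pair lies between Phb2, which encodes the mitochondrial protein prohibitin 2, and Ptpn6, which encodes the phosphatase SHP-1 of blood cells. The closest relatives by sequence therefore sit on different chromosomes.

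The deposited signals are array brightness. They were scaled between arrays on the 248 miRNAs detected on all 6, and levels are given as log2 scaled signal. A miRNA not detected on an array was set to a common floor of 1.64. The lowest detected level of an array lay between 1.44 and 2.11. The arrays detected 300 to 403 miRNAs, 24.1% to 32.3% of the total. The general blood cell miRNA miR-142-3p was detected on every array at 11.24 to 12.31, and myeloid miR-223-3p at 8.27 to 12.83. Microglia replicate 1 stood apart from replicate 2 in the miR-200 family and in several other miRNAs, so the tests, marker list results and correlations that rest on it are also given without it. Brightness depends on the probe, so a level was set against the level of the same miRNA, or the sum of the same list, on other arrays.

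All 5 members were detected on both colon macrophage arrays, and this was the population with the highest level of each. miR-200b-3p read 10.34 and 9.86 on the colon arrays. On the microglia arrays it read 7.94 on replicate 1 and was not detected on replicate 2. It was not detected on either liver array. The colon arrays thus lay above all 4 others for this miRNA, and the microglia replicates lay on either side of the detection limit. Because these are bulk samples, fewer cells holding a miRNA and less of it per cell cannot be told apart.

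The other chromosome 4 members followed the same course. miR-200a-3p read 9.30 and 8.80 in colon macrophages and 6.98 on microglia replicate 1. miR-429-3p read 8.83 and 8.14 in colon macrophages and 6.17 on microglia replicate 1. Neither was detected on microglia replicate 2 or on the liver arrays, so the colon arrays again stood above all others without overlap.

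The chromosome 6 pair was also present in the liver. miR-200c-3p read 8.57 and 8.10 in colon macrophages, 6.30 and 2.85 on the microglia arrays and 3.35 and 4.45 on the liver arrays. It was the only member detected on all 6 arrays, with the colon arrays on top and the liver arrays between the microglia replicates. miR-141-3p read 8.61 and 8.13 in colon macrophages, 6.18 on microglia replicate 1, and was missing from microglia replicate 2. On the liver arrays miR-141-3p read 2.43 and 3.65. In the liver this pair was dim, with signals of 3.01 to 7.28 times their own measurement error, against 12.1 to 13.5 times on the colon arrays. Of the 30 member values, 20 were detected.

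**Figure D1:**
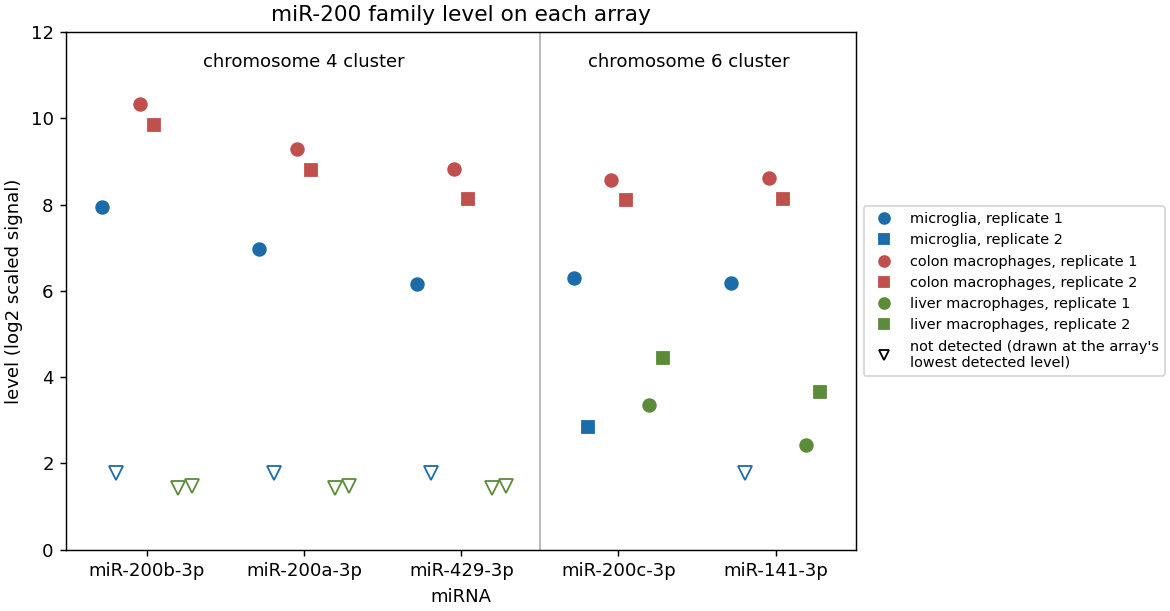
Level of each miR-200 family member (log2 scaled signal, vertical axis) on the 6 arrays, coloured by population, with circles for replicate 1 and squares for replicate 2. Open triangles mark arrays without detection, drawn at the lowest detected level of that array. The colon arrays lie highest for all 5 members, microglia replicate 1 next, and only miR-200c-3p and miR-141-3p have liver values.

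The first question was how far microglia differ from colon macrophages in the family. With all 6 arrays in limma's test, miR-200c-3p was lower in microglia, 4.57 ± 2.44 against 8.33 ± 0.33 (SD, n = 2), a log2 change of -3.76 (SE 1.15, adjusted p = 0.0477); this change turned to 0.096 only under scaling to the 75th percentile of all miRNAs, where that percentile is an undetected placeholder on microglia replicate 1. The call held with no scaling (adjusted p = 0.0371), on positive controls (0.0416) and among miRNAs detected on all arrays (0.00197). Beyond that percentile scaling, the call was lost under median scaling (adjusted p = 0.0826), quantile normalization (0.0966), the authors' values (0.103) and a higher floor (0.0652). With no detection filter (0.371), the fit of these groups only (0.0724) and the replicate block (0.0524) it was lost too. It was lost as well without microglia replicate 2 (0.122) and without any one colon or liver array (0.129 to 0.239). Across all miRNAs 46.2% of the 379 tested passed and 28.5% were lower in microglia (108 lower and 67 higher, but 69 and 112 after median scaling, 58 and 103 after quantile normalization, 65 and 95 in the authors' values, 108 and 29 without scaling and 139 and 29 on positive controls). So 1 member of 5 being called is no more than that background. The other 4 members had changes of -4.46 to -5.31 with adjusted p from 0.0501 (miR-429-3p) to 0.0723 (miR-200b-3p), and all 5 had an unadjusted p below 0.05, as 59.6% of tested miRNAs did. For those 4 the microglia mean joins 1 detected value with the floor, so the sizes depend on it (-4.22 to -5.07 with a higher floor). The median change of the 5 members was -4.58, beside -0.43 for all tested miRNAs. The microglia and colon arrays did not overlap for any member, which held for 85.2% of all tested miRNAs.

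The spread lay mostly in the microglia. The colon replicates differed by 0.47 to 0.70 log2 units in the family, and the microglia replicates by 3.44 for miR-200c-3p. Without microglia replicate 1 all 5 members were lower in microglia, where 13.4% of tested miRNAs were lower. The changes were then -8.46 for miR-200b-3p (SE 0.26, adjusted p = 0.00405), -7.41 for miR-200a-3p, -6.84 for miR-429-3p, -6.73 for miR-141-3p and -5.48 for miR-200c-3p (adjusted p = 0.0258). Only miR-200c-3p was detected on the remaining microglia array, so the other 4 sizes are set by the floor. These 4 members entered the test through the colon alone. For miR-200a-3p, miR-200b-3p and miR-429-3p the liver stood at the floor as well. Values at the floor have no measured spread, so the p-values of these members may be too small. Measured against the lowest detected signal of that array, they were at least 317-fold (miR-200b-3p), 153-fold (miR-200a-3p), 103-fold (miR-429-3p) and 95.9-fold (miR-141-3p) lower than the colon mean. Without microglia replicate 2 instead, 2 of 5 members were lower, where 11.3% of tested miRNAs were: miR-200a-3p by a log2 change of -2.06 and miR-200b-3p by -2.15 (adjusted p = 0.0376 and 0.0326). In each of these fits the lone microglia array was assumed to vary like the other groups.

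**Figure D2:**
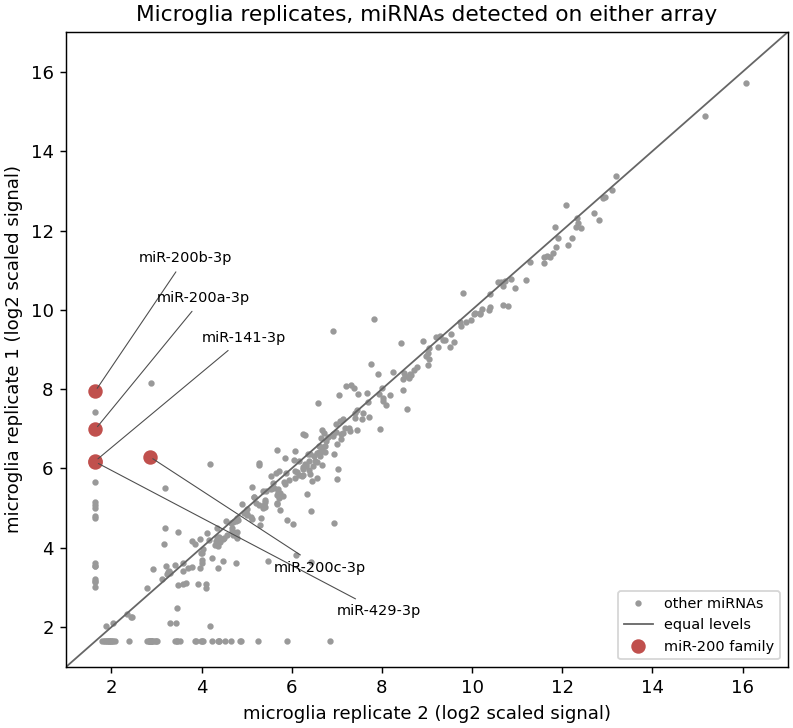
Level of every miRNA detected on either microglia array, replicate 1 (vertical axis) against replicate 2 (horizontal axis), both as log2 scaled signal, with the line of equal levels. The 5 miR-200 members (red) lie far above the line, 4 of them at the floor of 1.64 on replicate 2, while most miRNAs lie near it.

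The gap between the microglia replicates was among the widest on these arrays. miR-200b-3p was at least 71.2-fold higher on replicate 1 and miR-200a-3p at least 36.6-fold. miR-141-3p was at least 21.0-fold, miR-429-3p at least 20.8-fold and miR-200c-3p 10.9-fold higher. Over the 348 miRNAs detected on either array the median gap in either direction was 0.32 log2 units. With undetected values at the floor, all 5 members were among the 9 widest gaps in favour of replicate 1; for the 4 not detected on replicate 2 the place reflects the floor and the brightness on replicate 1. The other places among these 9 were held by miR-194-5p and miR-192-5p, miRNAs of gut and liver epithelium, and by miR-148a-3p and endothelial miR-126-3p. There were 15 miRNAs higher by over 2 log2 units on replicate 1 and 20 on replicate 2, so replicate 1 was not brighter throughout.

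On microglia replicate 1 the family kept the proportions it had in the colon. The distance from the colon mean was -2.06 for miR-200a-3p, -2.15 for miR-200b-3p, -2.32 for miR-429-3p, -2.04 for miR-200c-3p and -2.19 for miR-141-3p, a mean of -2.15 ± 0.11 (SD over 5 members of 1 array), or 4.45-fold lower. Each member was thus 4.11-fold to 4.98-fold below its colon mean, although the members span clusters and seeds. Over all 269 miRNAs detected on this array and on both colon arrays, the median distance was -0.26. Inside the range of the family fell 5.95%, the members themselves counted. Of the 269, 16 were not detected on replicate 2, and 4 of the 5 members were among them. The median distance of these 16 was -2.17, with 31.2% inside the range, again with the members counted. Outside the family only miR-194-5p of them lay inside the range. The others ran from -3.63 (miR-199b-5p) to -1.62 (miR-1945). Of the 7 other epithelial miRNAs detected on both colon arrays, 4 had distances close to those of the family. They were -2.16 for miR-192-5p, -2.08 for miR-194-5p, -2.38 for miR-215-5p and -1.99 for miR-375-3p, a miRNA of hormone-secreting cells. miR-96-5p and miR-205-5p were not detected on replicate 1, which puts miR-96-5p at least 3.62 log2 units below the colon mean, outside the range of the family. miR-203-3p, a miRNA of keratinocytes, went the other way, at 1.30 above the colon mean on replicate 1 and 1.27 on replicate 2.

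**Figure D3:**
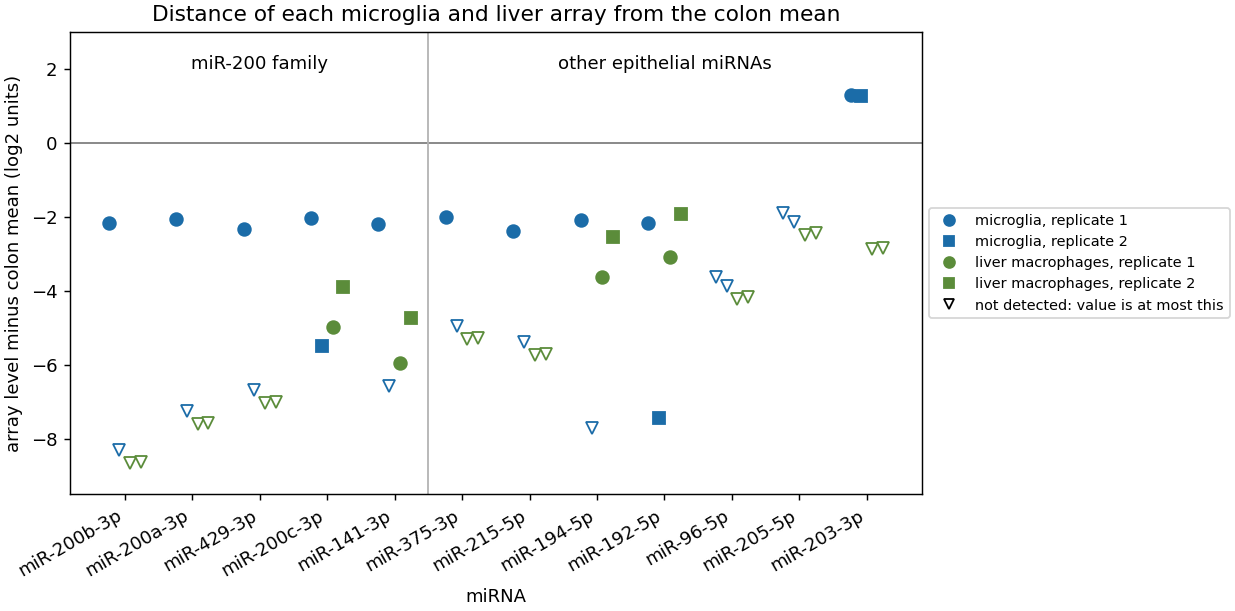
Level on each microglia and liver array minus the colon mean of the same miRNA (log2 units, vertical axis), for the 5 family members and 7 other epithelial miRNAs. Filled symbols are measured, open triangles are upper limits where the miRNA was not detected. Microglia replicate 1 lies between -1.99 and -2.38 for the family, miR-375-3p, miR-215-5p, miR-194-5p and miR-192-5p but not for miR-96-5p or miR-203-3p, while the liver arrays range from -1.93 for miR-192-5p to below -8.62 for miR-200b-3p.

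The second question was how colon and liver macrophages differ. With all 6 arrays miR-429-3p was higher in colon macrophages (log2 change 6.84, SE 1.44, adjusted p = 0.0466), 8.48 ± 0.49 against no detection in the liver (n = 2), at least 130-fold. Like miR-200a-3p and miR-200b-3p, it entered this test through the colon alone. Their liver values stand at the floor with no measured spread, which can make these p-values too small. The bound uses the lowest detected signals of the liver arrays, which lie under the common floor, so it exceeds the 115-fold of the floored log2 change. The call was lost under the 75th percentile of all miRNAs, median scaling (adjusted p = 0.0803), quantile normalization (0.0844), the authors' values (0.0994), a higher floor (0.0676) and no detection filter (0.404), and without any one colon or liver array (0.178 to 0.306). It was 1 member of 5, where 10.1% of 396 tested miRNAs passed and 5.3% were higher in the colon (21 higher and 19 lower, but 20 and 31 after median scaling and 20 and 25 after quantile normalization). The median change of the 5 was 6.84, or 7.03 with the undetected members at their bounds, beside -0.04 for all tested miRNAs. All 5 had an unadjusted p below 0.05, beside 24% of those tested. miR-200a-3p, miR-200b-3p, miR-200c-3p and miR-141-3p had changes of 7.41, 8.46, 4.43 and 5.34 with adjusted p from 0.0534 to 0.0881. That fit shares 1 estimate of the spread with the microglia, whose replicates lay far apart.

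Fitted on the colon and liver arrays alone, all 5 members were higher in colon macrophages, where 4.55% of tested miRNAs were. miR-200c-3p, measured on every array, was 21.6-fold higher (log2 change 4.43, SE 0.49, adjusted p = 0.0105, 8.33 ± 0.33 against 3.90 ± 0.78). miR-141-3p was 40.4-fold higher (log2 change 5.34, SE 0.52, adjusted p = 0.00762). For the chromosome 4 members the difference could only be bounded, at least 399-fold for miR-200b-3p and at least 193-fold for miR-200a-3p, with an SD of 0 in the liver that comes from the floor. These 3 members entered the test through the colon alone and have no measured spread in the liver, so their p-values (adjusted p = 0.00081 to 0.0015) may be too small. Without the detection filter, in the fit of all 6 arrays, none of the 5 members was called (adjusted p = 0.404 to 0.658; 4 of 5 had an unadjusted p below 0.05 in limma's test). The arrays of these populations did not overlap for any member, as for 59.6% of all tested miRNAs.

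**Figure D4:**
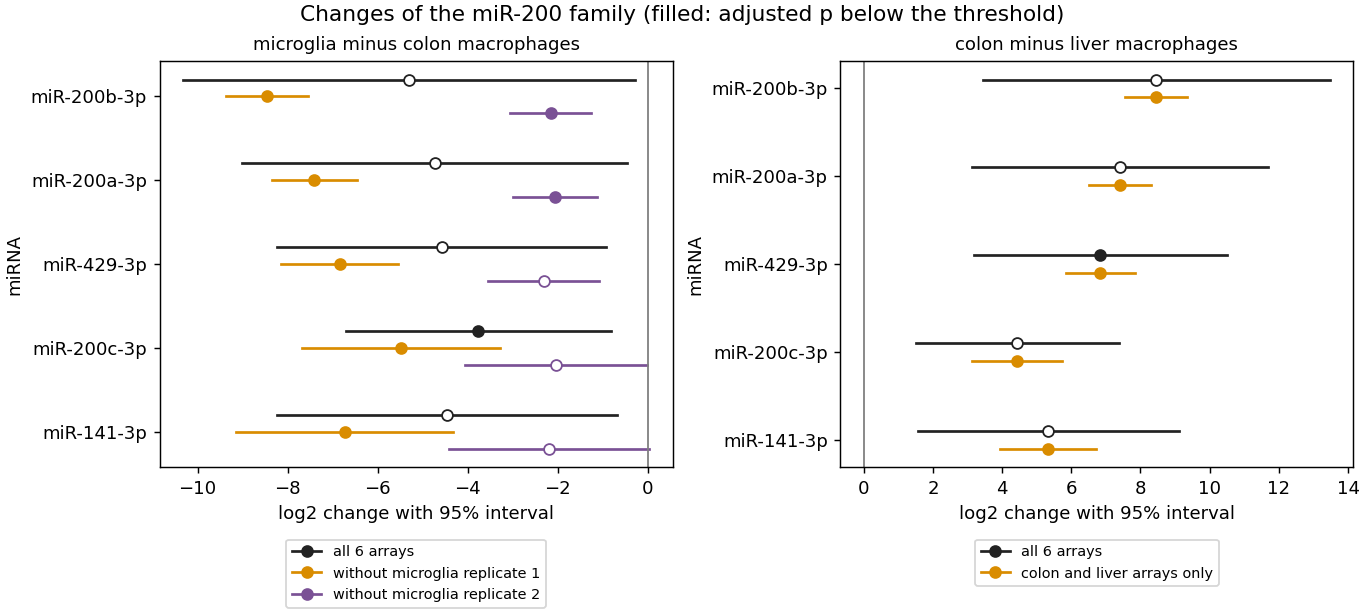
Log2 change of each member with its 95% interval (horizontal axis), for microglia minus colon macrophages (left) and colon minus liver macrophages (right), fitted on all 6 arrays and with the arrays named in the legends. Filled points have an adjusted p below the threshold of 0.05. Intervals are wide wherever both microglia replicates enter, -10.3 to -0.29 for miR-200b-3p on the left, and narrow without one of them.

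The third comparison, microglia with liver macrophages, gave no call. Of the family only miR-200c-3p and miR-141-3p were detected on both arrays of either group and tested, and limma called 0 of these 2, where it called 52.9% of 382 tested miRNAs. Unadjusted p was below 0.05 for 0 of 2, beside 61.3% of all tested, and the arrays were without overlap for 0 of 2, beside 81.4%. The log2 changes were 0.67 for miR-200c-3p (95% interval -2.26 to 3.61) and 0.87 for miR-141-3p (-2.90 to 4.65), so these data do not show that the populations are alike. The direction depended on the microglia array and, for miR-200c-3p, on the scaling: without replicate 1 the changes were -1.05 and -1.40 (0 of 2 called, where 31.9% of tested miRNAs were), and on positive controls that of miR-200c-3p was -0.046. Without replicate 2 the 3 chromosome 4 members enter the test through microglia replicate 1 alone, the liver stands at the floor, and the spread comes from the other groups. On that array they were at least 89.7-fold (miR-200b-3p), 46.1-fold (miR-200a-3p) and 26.2-fold (miR-429-3p) above the liver, with adjusted p of 0.00957, 0.0105 and 0.0149 that may be too small, where 11.8% of tested miRNAs were higher. The order of the group means was colon, microglia, liver for every member, but microglia and liver differed by less than the microglia spread.

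On the liver arrays the chromosome 6 pair was detected and the chromosome 4 trio was not. miR-200c-3p lay 4.98 and 3.89 log2 units below the colon mean on the liver arrays, and miR-141-3p 5.94 and 4.73. At the same distance from the colon as miR-200c-3p, miR-200b-3p would have read 5.12 and 6.21 on the liver arrays, far above their lowest detected levels of 1.44 and 1.47. The corresponding levels were 4.07 and 5.16 for miR-200a-3p and 3.50 and 4.60 for miR-429-3p, and none of these was detected. Relative to the colon, miR-200c-3p thus exceeded miR-200b-3p by at least 3.67 and 4.74 log2 units on the liver arrays, and miR-141-3p exceeded its seed mate miR-200a-3p by at least 1.66 and 2.85.

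On microglia replicate 2 only miR-200c-3p of the family was detected, and it exceeded miR-200b-3p by at least 2.82 log2 units relative to the colon. On microglia replicate 1 that difference was 0.11. With 2 arrays against 2 these differences were not tested. On microglia replicate 2 the miR-200c-3p signal was near the detection limit, at 3.13 times the error. On the liver arrays it was dim, at 5.12 and 7.28 times the error. Replicates in the liver differed too: miR-200c-3p was higher on replicate 2 by 1.10 and miR-141-3p by 1.22 log2 units, where the median of the 359 miRNAs detected on both liver arrays was higher by 0.37.

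The partner arms of the 5 hairpins were nearly silent. The 5p arms are the strands usually discarded when a hairpin of this family is processed. Of their 30 values 3 were detected, all in colon macrophages: miR-200b-5p at 3.21 and 2.19 and miR-200a-5p at 3.05 on replicate 1. miR-200c-5p, miR-141-5p and miR-429-5p were detected on no array. miR-200b-5p alone was tested, and it passed against neither microglia (log2 change -1.06, adjusted p = 0.0722) nor liver (1.06, adjusted p = 0.183). The sequences of both detected 5p arms begin alike, with AUCUUAC at bases 2 to 8.
mmu-miR-200b-5p: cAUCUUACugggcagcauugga
mmu-miR-200a-5p: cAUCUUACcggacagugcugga

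Other epithelial miRNAs moved partly with the family. Of 10 on the array, 9 and 7 were detected on the colon arrays, 5 and 2 on the microglia arrays and 2 and 3 on the liver arrays. Their summed scaled signal was 2769 and 1977 in the colon, 558 and 55.3 in microglia and 208 and 462 in the liver. Over the same arrays the sum of the miR-200 family was 3152 and 2209, 596 and 7.21, and 15.6 and 34.4. Of 7 tested against microglia 4 were lower in microglia (miR-96-5p, miR-205-5p, miR-215-5p and miR-375-3p) and 1, miR-203-3p, was higher, with a median change of -3.96, where 28.5% of all tested miRNAs were lower and 17.7% higher. The 4 lower ones entered the test through the colon alone. miR-96-5p and miR-205-5p were detected on no microglia or liver array, and miR-215-5p and miR-375-3p only on microglia replicate 1. Their p-values may be too small where the spread comes from the floor. Of 7 tested against the liver 5 were higher in the colon, with a median of 3.08, where 5.3% of all tested miRNAs were. These 5 (miR-96-5p, miR-203-3p, miR-205-5p, miR-215-5p and miR-375-3p) were detected on neither liver array. They have no measured spread in the liver, so the p-values behind these calls may be too small. Of 3 tested between microglia and liver 1, miR-203-3p, was higher in microglia, where 81 of 382 tested miRNAs were. On microglia replicate 2 alone, the distance from the colon mean was -7.44 log2 units for miR-192-5p and 1.27 for miR-203-3p. miR-192-5p read 2.87 on that array, beside 7.23 and 8.38 on the liver arrays. miR-194-5p, miR-215-5p, miR-375-3p, miR-96-5p and miR-205-5p were not detected on that array, so their distances are only bounded. Between colon and liver, with all 6 arrays, limma did not call miR-192-5p and miR-194-5p, which are also made by hepatocytes. Their log2 changes, colon minus liver, were 2.51 and 3.08 (adjusted p = 0.392 and 0.346). On the liver arrays miR-192-5p lay 3.08 and 1.93 log2 units under its colon mean, which is less than any member of the miR-200 family on the same arrays.

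Markers of further cell types moved with the arrays as well, and their part in the miR-200 values was not tested. Hepatocyte miR-122-5p was detected in microglia (8.11 and 7.30) and liver (11.07 and 11.82) and not in the colon. Endothelial miR-126-3p read 5.15 on microglia replicate 1, was not detected on replicate 2, and read 7.90 and 7.71 in the colon and 11.94 and 11.27 in the liver. Of 6 smooth muscle and fibroblast miRNAs 2 were detected on microglia replicate 1, 0 on replicate 2, 5 on each colon array and 4 on each liver array, and miR-143-3p was detected only in the colon. Erythrocyte miR-451a read 9.46 and 6.93 in microglia, 5.88 and 5.68 in the colon and 7.43 and 7.30 in the liver. All 3 neuronal miRNAs were detected on both microglia arrays, at summed signals of 38.0 and 36.2, and all 5 myeloid miRNAs on every array. Lymphocyte miR-150-5p was not detected in microglia and read 2.83 and 4.22 in the colon and 8.97 and 7.09 in the liver.

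**Figure D5:**
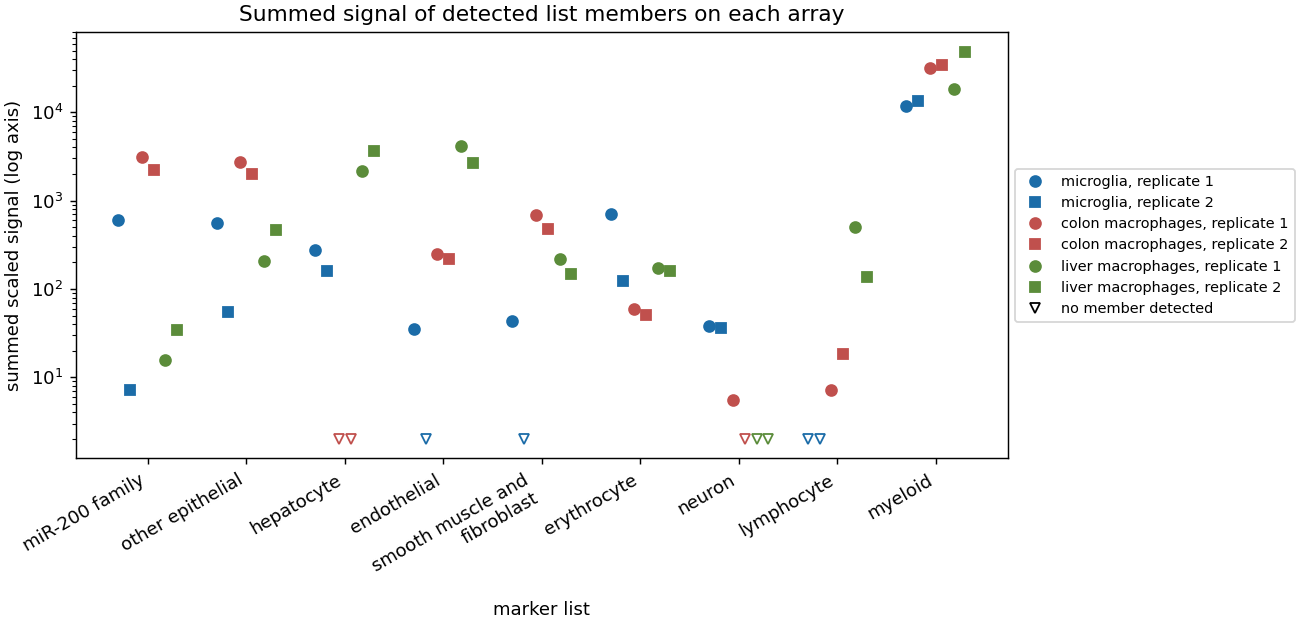
Summed scaled signal of the detected members of each marker list (vertical axis, log scale) on the 6 arrays, with open triangles near the bottom where no member was detected. The miR-200 family and the other epithelial miRNAs are highest on the colon arrays and higher on microglia replicate 1 than on replicate 2, whereas the myeloid list is high on all arrays.

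In limma's test with all 6 arrays these lists were called as follows, where 46.2% of all tested miRNAs passed between microglia and colon, 52.9% between microglia and liver and 10.1% between colon and liver. Against the colon, microglia had 1 of 1 tested hepatocyte and 3 of 3 neuronal miRNAs higher, and 2 of 2 endothelial, 5 of 5 smooth muscle and fibroblast and 2 of 5 myeloid miRNAs lower. Against the liver, microglia had 3 of 3 neuronal and 1 of 5 myeloid miRNAs higher, and 1 of 1 hepatocyte, 2 of 2 endothelial, 3 of 4 smooth muscle and fibroblast, 1 of 1 lymphocyte and 2 of 5 myeloid miRNAs lower. The colon had 2 of 5 smooth muscle and fibroblast miRNAs higher than the liver, and 1 of 1 hepatocyte, 1 of 2 endothelial and 1 of 1 lymphocyte miRNAs lower. Many calls here and below rest on the floor. No colon array detected miR-122-5p, miR-9-5p or miR-9-3p. No microglia array detected miR-126-5p, miR-143-3p, miR-199a-5p, miR-214-3p or miR-150-5p, and no liver array miR-143-3p or a neuronal miRNA. Such miRNAs entered through the brighter group alone, so their p-values may be too small. miR-451a, the tested erythrocyte miRNA, passed in no comparison, although its unadjusted p was below 0.05 for microglia against the colon. Without microglia replicate 1, where 27.6% and 31.9% of tested miRNAs passed against colon and liver, the hepatocyte calls were the same. Microglia then had 2 of 3 neuronal miRNAs and miR-451a higher than the colon, and 1 of 2 endothelial, 4 of 5 smooth muscle and fibroblast and 1 of 5 myeloid miRNAs lower. Against the liver, microglia then had 2 of 3 neuronal miRNAs higher, and 2 of 2 endothelial, 3 of 4 smooth muscle and fibroblast and 1 of 5 myeloid miRNAs lower. In that fit, where 6.31% of tested miRNAs passed between colon and liver, the colon had 2 of 5 smooth muscle and fibroblast miRNAs higher than the liver, and 2 of 2 endothelial miRNAs and miR-451a lower, and miR-150-5p was called in no comparison.

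The 5 members moved together over the arrays, with Pearson's r between 0.968 and 0.9998 for the 10 pairs over 6 arrays, values that share each array's scaling and the floor. Without microglia replicate 1 the range was 0.976 to 0.99997 over 5 arrays. The highest r were those of miR-200a-3p with miR-200b-3p and of miR-200c-3p with miR-141-3p, the cluster mates. Among 408 other miRNAs, those most like the mean of the family were miR-375-3p (r = 0.995), miR-215-5p (r = 0.994) and miR-196b-5p (r = 0.966) over the 6 arrays. miR-196b-5p, which lies in a Hox gene cluster, read 6.20 and 5.63 in the colon and 3.22 on microglia replicate 1, and like miR-375-3p and miR-215-5p it was not detected on the other 3 arrays. miR-27b-3p (r = 0.865), miR-196a-5p (r = 0.852) and miR-96-5p (r = 0.852) came next. Taken alone, miR-200a-3p, miR-200b-3p, miR-141-3p and miR-429-3p were each most like miR-375-3p (r = 0.995, 0.992, 0.975 and 0.999), and miR-200c-3p was most like miR-215-5p (r = 0.976). Without microglia replicate 1 the 6 most like the mean of the family were miR-196a-5p, miR-215-5p, miR-96-5p, miR-196b-5p, miR-375-3p and miR-143-3p (r = 0.997 to 0.995 over 5 arrays). miR-27b-3p fell to rank 15 (r = 0.916), so both the set and its order rest on that array. On these 5 arrays the 6 miRNAs were detected in the colon only and stand at the floor elsewhere. Their r therefore mainly reflects shared detection in the colon.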

How the data were processed

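miRNAs were measured on 6 one-colour Agilent arrays (100 ng total RNA, Cy3), 2 per population. The authors deposited, per the file headers, a total gene signal (an intensity on a linear scale), its error and a detection flag per miRNA. Undetected miRNAs hold 0.1. The submitters' processing notes name Agilent Feature Extraction 9.1. The authors' deposited value table of 595 miRNAs is on a log2 scale (all column medians 3.72, maximum 16.08, r = 0.992 with the levels used here). The sources used here do not state its normalization.

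After 21 control rows were left out, arrays were scaled to a common 75th percentile, taken across the 248 miRNAs that all of them detected, floored at 3.12 scaled units and log2 transformed. limma 3.58.1 (R 4.3.3) fitted 3 group means over all arrays and 414 miRNAs, each detected on both arrays of at least 1 group (3 residual and 2.20 prior degrees of freedom). Tests were 2-sided, Benjamini-Hochberg adjusted within a comparison, threshold 0.05, after a check on simulated data. A group without detection has an SD of 0 from the floor, which can make p-values too small. "At least" folds set the brighter mean against the lowest detected signals of the dimmer arrays. Precision is limited by the number of arrays.

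The named miRNAs were the 5 members, their partner arms, listed markers past the threshold, and the miRNAs with the highest r over 6 arrays. Members and lists were chosen with earlier results of these data known. miR-145-5p, miR-145-3p and miR-486-5p of the lists had no row. The deviations of same-numbered replicates correlated at 0.21, 0.07 and -0.09, so replicate numbers were not taken as pairs. Spot backgrounds, slides and scan dates are not in these tables, so no normexp or slide setting was run.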

Additional observations from a re-analysis of the deposited data

How the results depend on the processing

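With 2 arrays per group, the number of members called moved with most settings, while the log2 changes of all members kept their sign against colon macrophages except miR-200c-3p in microglia under the 75th percentile over all miRNAs (0.096), a scaling that divides microglia replicate 1 by the placeholder of 0.1. Against the colon, microglia had 1 of 5 members lower. In limma's test this was 0 under that scaling, median scaling, quantile normalization, the authors' value table or no detection filter (0 with an unadjusted p below 0.05 in each), 0 with a higher floor (4 unadjusted) or a fit of those 2 groups only (1 unadjusted), and 3 with no scaling or positive control scaling. In the latter 2 settings, 108 and 139 of 379 tested miRNAs were lower in microglia. With the colon against the liver 1 of 5 members was higher, 0 under the 75th percentile over all miRNAs (0 unadjusted), 0 with median scaling, quantile normalization or a higher floor (5 unadjusted in each), 0 in the authors' value table or without a detection filter (4 unadjusted in each), 2 with no scaling and 5 in the fit of those 2 groups only. Of 396 tested miRNAs, 14 were higher in the colon with no scaling and 18 in the fit of those 2 groups. Between microglia and the liver miR-200c-3p turned to -0.046 with positive control scaling, and without microglia replicate 1 miR-200c-3p and miR-141-3p turned to -1.05 and -1.40, with 2.40 and 3.15 without microglia replicate 2. With each array left out in turn, members called ranged from 0 to 5 (microglia against colon), 0 to 3 (microglia against liver) and 0 to 4 (colon against liver). Of these, microglia against colon gave 5 without microglia replicate 1, 2 without replicate 2 and 0 without any one colon or liver array, and colon against liver gave 3 and 4 without microglia replicates 1 and 2 and 0 without any one colon or liver array (0 unadjusted in each of these fits with 0). Over all miRNAs the calls, 175, 202 and 40 for the 3 comparisons, ranged over 54 to 202, 121 to 228 and 25 to 110 with each array left out. They were 0, 0 and 0 under the 75th percentile over all miRNAs (86, 103 and 14 unadjusted), 50, 93 and 12 without the filter, 111 and 19 for microglia and liver against the colon among miRNAs detected on all arrays, and 26 for colon against liver with no scaling. Among miRNAs detected on all arrays miR-200c-3p was the 1 member tested. In limma's test it was called between microglia and colon (adjusted p = 0.00197) and between colon and liver (0.00392). The replicate block, for numbers that no label pairs, gave 24 calls for colon against liver and 1, 0 and 1 members called. Under it the member lower in microglia than in the colon was miR-429-3p (adjusted p = 0.0405) and not miR-200c-3p (0.0524), and the member called between colon and liver was miR-429-3p (0.0484). Marker list calls and correlations without microglia replicate 1 were added after seeing the data. Signals near the detection limit restrict what can be said of the liver values.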
